A study of Mus musculus with 10 samples.

Results

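Cytosolic ribosomal protein genes encode the proteins that, together with ribosomal RNA, build the ribosomes of the cytoplasm. They were selected here by symbol, as genes named Rpl, Rps or Rplp followed by a number and at most a final a or x. This gave 76 of the 19214 gene symbols found in the deposited tables, with 43 genes of the large subunit, 30 of the small subunit and 3 of the P stalk, and all 76 were listed in each of the 3 tables. The large subunit joins amino acids, the small subunit reads the mRNA, and the P stalk of the large subunit recruits the translation factors. Each ribosome carries a single copy of most of these proteins, and their mRNAs are among the most abundant of growing and secreting cells. Many of these mRNAs begin with a pyrimidine run, the 5′ terminal oligopyrimidine (TOP) motif, through which their translation responds to growth signals.

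The study collected mRNA of mouse gut by RNA-seq to describe the transcriptome of smooth muscle cells (SMCs) beside that of neighbouring cells. All 10 libraries came from mice of 4 weeks on a C57BL/6 background, with 1 library for each condition. PDGFRα+ cells of the colonic mucosa and the unsorted colonic mucosa came from PdgfraeGFP/+ mice, in which 1 Pdgfra allele drives eGFP. Colonic and jejunal SMCs came from smMHCCre-eGFP/+ mice, in which a Myh11 transgene drives Cre and eGFP, and were pooled over many mice. Colonic and jejunal interstitial cells of Cajal (ICC), the pacemaker cells of the gut, came from KitcopGFP/+ mice, in which 1 Kit allele drives the fluorescent protein. Colonic and jejunal muscle PDGFRα+ cells, fibroblast-like interstitial cells, came from PdgfraeGFP/+ mice. Colonic and jejunal smooth muscle (SM) tissue, the unsorted muscle layer, is labelled as KitcopGFP/+, although the paper describes smMHC reporter mice. Values are FPKM, mapped fragments scaled to transcript length and to the size of the library, summed over the transcript variants of a gene. The tables give no counts, so the depth behind a value is unknown and no counting error could be given. With 1 library per condition, differences are described without a test, and differences between mice, sorting and library preparation cannot be told apart from the condition. By the labels, SMCs and muscle PDGFRα+ cells also differ from SM tissue in reporter strain. ICC share the strain of SM tissue, and mucosal PDGFRα+ cells that of mucosa.

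The marker genes of the sorted cells were checked first. The 5 ICC markers summed to 2442 and 1870 FPKM in colonic and jejunal ICC, against 179.9 and 179.7 FPKM in the SM tissues. The 13 contractile markers summed to 84740 and 62824 FPKM in colonic and jejunal SMCs, against 40045 and 38914 FPKM in the SM tissues. The 5 PDGFRα+ cell markers summed to 779 FPKM in mucosal PDGFRα+ cells against 83.8 FPKM in mucosa, and to 2884 FPKM in colonic PDGFRα+ cells against 386 FPKM in colonic SM tissue. The library labelled jejunal PDGFRα+ cells went against its label in part. The same 5 markers summed to 504 FPKM in it, against 252 FPKM in jejunal SM tissue, but *Pdgfra* itself was at 34 FPKM, against 57.0 FPKM in the tissue. Its contractile markers summed to 34560 FPKM, against 38914 FPKM in the tissue and 4919 FPKM in colonic PDGFRα+ cells. It is given below as labelled, and its own comparison rests on it alone. The total of all genes lay between 298216 and 384512 FPKM in the 10 libraries.

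Of the 76 genes, 55 matched a RefSeq start site (GRCm38.p6), and the sequence around that site was searched for the TOP motif because these genes moved together. A C followed by at least 4 pyrimidines (C or T) began exactly at an annotated start in 13 of the 55 genes, which is 23.6%, against 3.01% of 27025 genes with an annotated start. Allowing the C to lie from 5 bases before to 14 bases after the start gave 35 of 55 genes (63.6%), against 32.6% of all genes. A longer run, a C followed by at least 7 pyrimidines in the same window, was present in 23 of 55 (41.8%), against 8.4% of all genes. The strand of transcription alone was searched, and a match is a description of the letters and not a mapped start. The windows of 30 bases below, 10 before and 20 from the annotated start, are examples and do not sort the members by evenness. They show long runs in 4 genes and 2 genes of uneven level in which no such run was found. *Rps21*, also of uneven level, had a run of 7 bases across an annotated start. *Rps26*, of uneven level too, had a run of 8 bases that began 4 bases after its annotated start. *Rpl9*, of even level, had none. The longest run that starts with C is in capitals.
Rpl15, chr14:18270967-18270996, minus strand: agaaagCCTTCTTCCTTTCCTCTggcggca
Rpl35, chr2:39005112-39005141, minus strand: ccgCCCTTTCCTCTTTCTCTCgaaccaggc
Rpl27a, chr7:109519185-109519214, plus strand: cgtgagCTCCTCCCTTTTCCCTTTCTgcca
Rpl14, chr9:120571507-120571536, plus strand: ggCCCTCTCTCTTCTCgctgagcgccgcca
Rpl5, chr5:107900518-107900547, plus strand: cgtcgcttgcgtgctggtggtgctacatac
Rps16, chr7:28350679-28350708, plus strand: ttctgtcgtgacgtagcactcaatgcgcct

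The ribosomal protein genes held between 6.19% and 11.8% of the total FPKM of a library. The share was 11.5% in mucosal PDGFRα+ cells and 11.8% in mucosa. In colon it was 6.5% in SMCs, 6.19% in ICC and 9.68% in PDGFRα+ cells, against 6.63% in SM tissue. In jejunum it was 8.99% in SMCs, 7.64% in ICC and 10.7% in the library labelled PDGFRα+ cells, against 7.01% in SM tissue. Both mucosal libraries and both muscle PDGFRα+ cell libraries thus had larger shares than any SMC, ICC or SM tissue library. The highest share was 1.91 times the lowest, with or without the library labelled jejunal PDGFRα+ cells. Contractile transcripts filled 23.3% of the total in colonic SMCs and 17.1% in jejunal SMCs, and this share enters the denominator. Without the 13 contractile markers in the total, the ribosomal protein share was 8.48% in colonic SMCs against 7.56% in colonic SM tissue, and 10.8% in jejunal SMCs against 7.93% in jejunal SM tissue. On that scale jejunal SMCs also lay above colonic PDGFRα+ cells, at 9.82%. Colonic SMCs were therefore just below their tissue with the contractile genes in the total and above it without them. In bulk samples like these, fewer cells of a type and less RNA per cell cannot be told apart.

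**Figure D1:**
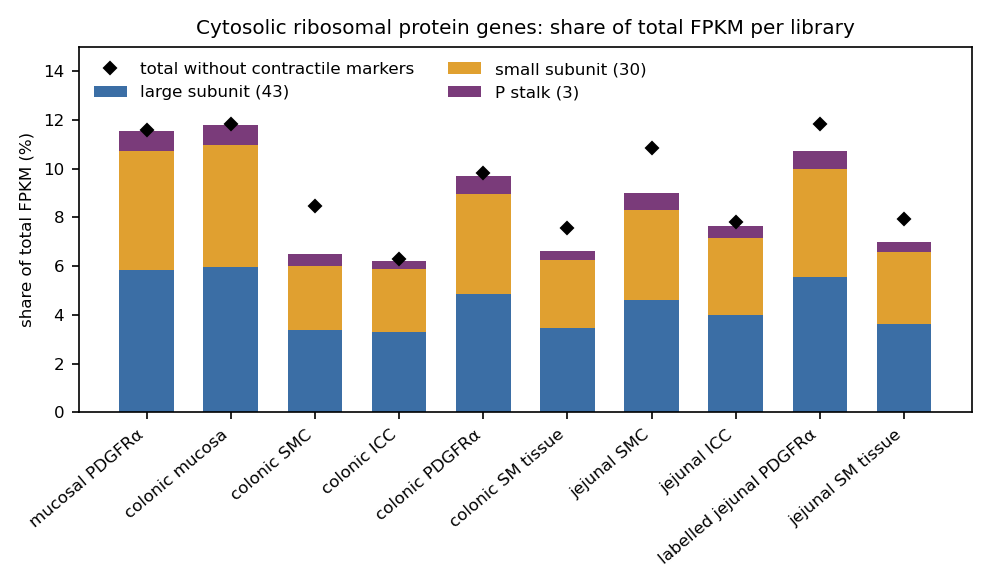
Share of total FPKM (%) taken by the 76 ribosomal protein genes in each of 10 libraries, stacked by large subunit, small subunit and P stalk, with diamonds for the share when 13 contractile markers are left out of the total. The bars of both mucosal and both muscle PDGFRα+ cell libraries lie between 9.68% and 11.8%, and the other 6 between 6.19% and 8.99%.

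The balance of the subunits stayed within a narrow band. The summed large subunit level was between 1.17 times the small subunit sum in colonic PDGFRα+ cells and 1.29 times in colonic SMCs, with 43 genes on one side and 30 on the other. Per gene the order was the reverse, with the median large subunit gene at 0.72 to 0.86 times the median small subunit gene. The stalk genes took 0.83% of the total FPKM in each mucosal library, and 0.32% in colonic ICC, the lowest value.

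Each member was detected in each library, and 74 of 76 were at 100 FPKM or more in all 10 of them. The exceptions were *Rps23*, which encodes a protein of the decoding centre, at 72.8 to 166 FPKM, and *Rpl34*, at 4.22 to 10.8 FPKM. The most abundant member in every library was *Rplp1*, 1 of the acidic stalk proteins. It was at 1455 FPKM in mucosal PDGFRα+ cells and 1498 FPKM in mucosa, and at 934, 531 and 1368 FPKM in colonic SMCs, ICC and PDGFRα+ cells, against 739 FPKM in colonic SM tissue. In jejunum *Rplp1* was at 1316 FPKM in SMCs, 862 FPKM in ICC and 1581 FPKM in the library labelled PDGFRα+ cells, against 908 FPKM in SM tissue. Colonic ICC thus had the lowest level and the library labelled jejunal PDGFRα+ cells the highest. Next by summed level came *Rpl41*, which encodes a very short peptide (404 to 1190 FPKM), *Rps3*, a protein at the mRNA entry (416 to 942 FPKM), *Rpl39*, which lines the exit tunnel (362 to 1009 FPKM), and *Rpl10*, which joins the large subunit late in its assembly (424 to 883 FPKM). At the low end, above *Rps23* and *Rpl34*, were *Rpl22* (128 to 263 FPKM), *Rpl31* (138 to 279 FPKM) and *Rpl27* (137 to 281 FPKM). Leaving out *Rpl34*, the summed level of the highest member was 9.74 times that of the lowest. The main variant was under 1000 bases long in 65 of 76 members, and FPKM of short transcripts depends on how the length was corrected.

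The low value of *Rpl34* belongs to its symbol and not to its locus. The variant named *Rpl34* in the tables is 595 bases long. A second known variant of 413 bases at the same locus, chr3:130429749-130433247 (mm9), carries the name *Rpl34-ps1*. It stood at 502 FPKM in mucosal PDGFRα+ cells and 543 FPKM in mucosa, and at 331, 233 and 416 FPKM in colonic SMCs, ICC and PDGFRα+ cells, against 309 FPKM in colonic SM tissue. In jejunum it was at 474, 265 and 533 FPKM in SMCs, ICC and the library labelled PDGFRα+ cells, against 339 FPKM in SM tissue. The named *Rpl34* variant made up 1.19% to 2.63% of both together. With both added, *Rpl34* ranked between position 21 and 43 of the 76 by level.

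Near-identical copies elsewhere in the genome also bear on these levels, since reads of a gene and its copy can be exchanged. The coding sequence of 75 members was aligned to the mm9 genome, and 68 had at least 1 unspliced copy at 95% identity or more over at least 90% of its length. At 99% identity or more 52 members had a copy, with up to 7 for 1 gene. *Rps23* had 10 copies at 95% and 2 at 99%. One of these lies at chr8:3583792-3584230 within *C330021F23Rik*, a gene that RefSeq names Rps23rg1, and the other at chr3:37613662-37614100 within *Gm5148*. These genes were at 11.9 to 28.3 and 14 to 32.7 FPKM in the 10 libraries. Across the 75 members, the number of copies at 99% and the summed level had a Spearman coefficient of -0.22, which is a description across genes of the same 10 libraries.

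Comparisons between libraries used the log2 ratio of FPKM + 1, over the genes that reached 1 FPKM in either library, and a difference of 2-fold was counted as a call. Sorted SMCs were first set against the SM tissue of the same organ, which is labelled with another reporter strain. In jejunum the members were higher in SMCs than in SM tissue by a median log2 ratio of 0.50, or 1.41-fold, with 74 of 76 above 0, while all 12460 genes compared had a median of -0.15. In colon the median of members was 0.13 in FPKM, with 46 of 76 above 0, and the median was -0.02 when the libraries were rescaled to equal totals. The median of all 12772 colonic genes was -0.32, so that the members lay 0.45 above it, against 0.65 in jejunum, and they stayed above it under each scaling tried. Genes of like level differed from this. The 493 non-member genes of 100 FPKM or more in either colonic library had a median of 0.27, above that of the members. In jejunum the median of 522 such genes was 0.20, below that of the members. At least 2-fold higher were 3 members in jejunal SMCs, with 2.17% of all genes past that fold, and 1 member in colonic SMCs, with 1.72% of all genes. These were *Rplp0*, *Rpl34* and *Rpl13a* in jejunum and *Rplp0* in colon. With *Rpl34-ps1* added, *Rpl34* was at 0.49 in jejunum and 0.11 in colon, and 2 jejunal members were past 2-fold. With equal totals *Rplp0* alone remained 2-fold higher in jejunum. No member was 2-fold lower in FPKM, with 12.9% of jejunal and 17.6% of colonic genes past that fold, and with equal totals *Rps24* was at -1.0 in colonic SMCs.

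The order of the members was much alike in both organs, whose libraries stand in separate tables and share no tissue. Over the 76 members, the ratios of SMCs to tissue in colon and in jejunum had a Pearson coefficient of 0.95 and a Spearman coefficient of 0.95, given as a description, since the points share their 4 libraries. Of the 10 members with the lowest ratio in each organ 8 were shared, namely *Rpl4*, *Rpl5*, *Rpl7*, *Rpl17*, *Rpl23*, *Rps3a*, *Rps23* and *Rps24*. Of the 10 highest 9 were shared, namely *Rpl8*, *Rpl13*, *Rpl13a*, *Rpl15*, *Rpl18*, *Rpl29*, *Rpl34*, *Rplp0* and *Rps2*. With *Rpl34-ps1* added, *Rpl34* left this list. For ICC the Pearson coefficient was 0.64, with 2 of 10 lowest and 9 of 10 highest shared, or 3 and 8 with *Rpl34-ps1* added, when *Rpl34* moved to the shared lowest. For PDGFRα+ cells it was 0.68, with 3 and 5 shared, but its jejunal side is the library that went against its label.

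**Figure D2:**
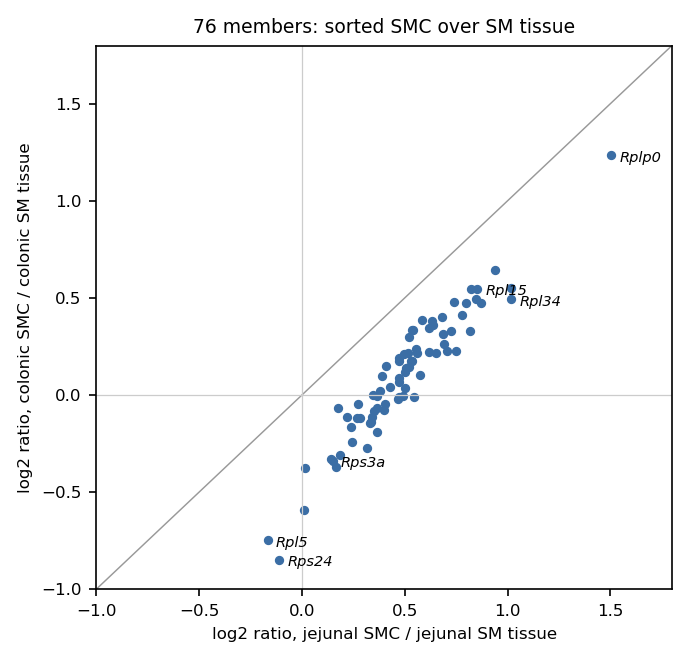
Log2 ratio of FPKM + 1 of sorted SMCs over SM tissue, jejunum on the x axis and colon on the y axis, with 1 point for each of 76 members and a line of equality. The points lie along a line below equality, from *Rps24* and *Rpl5* at the low end to *Rplp0* at 1.23 in colon and 1.5 in jejunum.

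ICC showed no such excess over all genes. Non-member genes of 100 FPKM or more in either library had medians of 0.06 in colonic ICC and -0.04 in jejunal ICC, each over tissue. The median ratio of members was -0.16 in colonic ICC over colonic SM tissue, against 0.14 for all 13105 genes, with 64 of 76 members below 0. In jejunal ICC it was -0.03 against 0.04 for 12742 genes, with 44 of 76 below 0, and it turned to 0.13 with equal totals, where all genes were at 0.20. No member was 2-fold apart from tissue in either organ. Of all genes 7.67% were 2-fold higher and 13.3% lower in colonic ICC, and 8.11% higher and 11.6% lower in jejunal ICC. The extremes in colon were *Rpl41* at -0.64 and *Rplp1* at -0.48, and *Rpl34* by its symbol at 0.48, or -0.39 with *Rpl34-ps1* added. In jejunum they were *Rps14*, a protein of the platform of the small subunit, at -0.39 and *Rpl27a* at 0.35, which was at -0.36 when known variants alone were used. Jejunal ICC and SMCs also carried pancreatic acinar transcripts, at a sum over 11 genes of 136 and 46.2 FPKM against 0.226 FPKM in jejunal SM tissue, and the part of these in the ratios was not tested.

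Colonic PDGFRα+ cells were higher than colonic SM tissue in all 76 members. The median ratio was 0.57, or 1.49-fold, against -0.11 for all 12990 genes. It was 0.41 for the 608 non-member genes of 100 FPKM or more in either library. At least 2-fold higher were 9 members, with 9% of all genes past that fold, and no member was 2-fold lower, with 17.9% of all genes. A share of 11.8% of members is near the background of 9%, so the shift shows in the median and not in the count. The 9 were *Rps19* (1.33), *Rps16* (1.28), *Rpl28* (1.18), *Rplp0* (1.17), *Rplp2* (1.13), *Rpl8* (1.12), *Rpl13a* (1.08), *Rps28* (1.05) and *Rps10* (1.01). With equal totals 6 members stayed past 2-fold, and *Rpl13a*, *Rps28* and *Rps10* did not. At the other end *Rps24* at 0.02, *Rpl5* at 0.06 and *Rpl4*, which reaches into the exit tunnel, at 0.16 were nearest to tissue. The contractile markers moved with this comparison, at 1.39% of the total in colonic PDGFRα+ cells against 12.2% in colonic SM tissue, and so did the neuron markers, at sums of 29.0 against 344 FPKM. With the contractile markers left out of the total, the ribosomal protein share was 9.82% against 7.56%. The part of the neuron markers in the ratio was not tested.

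The library labelled jejunal PDGFRα+ cells was also higher than its tissue in all 76 members, with a median of 0.80 against -0.02 for 12820 genes. For 580 non-member genes of 100 FPKM or more in either library the median was 0.36. In the labelled library 14 members were 2-fold higher (13 with *Rpl34-ps1* added), with 5.23% of all genes, and none 2-fold lower, with 4.69% of all genes. With equal totals 1 member, *Rpl13a*, stayed past 2-fold. Neuronal and epithelial markers moved with it. The 5 neuron markers summed to 322 FPKM in this library against 260 FPKM in jejunal SM tissue, and the 6 epithelial markers to 122 against 12.4 FPKM. Their part in the ratio was not tested.

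**Figure D3:**
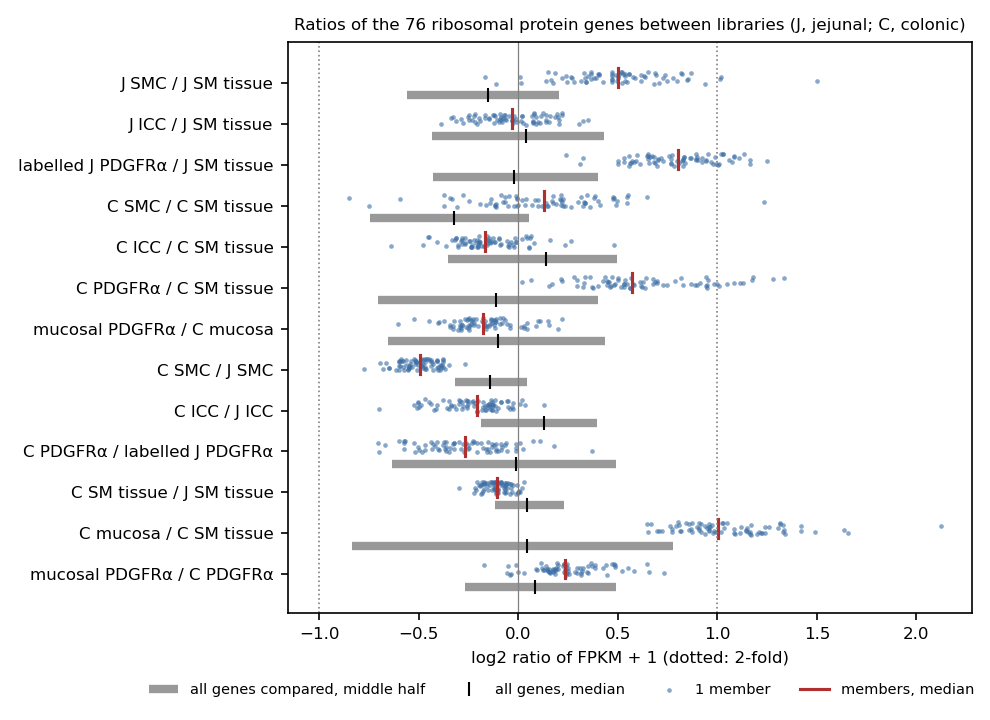
Log2 ratio of FPKM + 1 in 13 comparisons, with a blue point for each of 76 members, a red line for their median, and below it a grey bar and black tick for the middle range (quartiles) and median of all genes compared; dotted lines mark 2-fold. Members lie close together, and their median is highest for mucosa over colonic SM tissue (1.00) and lowest for colonic over jejunal SMCs (-0.49).

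Mucosa had the highest levels. Against colonic SM tissue all 76 members were higher, by a median of 1.00 or 2.01-fold, while the 13832 genes compared had a median of 0.04. The 700 non-member genes of 100 FPKM or more in either library had a median of 0.71, much nearer to that of the members. These libraries come from separate tables. At least 2-fold higher were 38 members, or 50%, with 19.6% of all genes past that fold, and none was 2-fold lower, with 22.1% of all genes. With equal totals 16 members were past 2-fold. The lowest members were *Rps24* at 0.65, *Rpl24* at 0.65 and *Rpl37a* at 0.67, and the highest were *Rplp0* at 2.12, *Rps26* at 1.66 and *Rpl28* at 1.64. The 12 proliferation genes summed to 285 FPKM in mucosa against 73.0 FPKM in colonic SM tissue, and the 6 epithelial markers to 4628 against 62.2 FPKM. What these have to do with the ratio was not tested.

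Mucosal PDGFRα+ cells, unlike those of the muscle layer, were not above their tissue. Against mucosa 64 of 76 members were lower, with a median of -0.18 against -0.10 for all 12840 genes. The 705 non-member genes of 100 FPKM or more in either library had a median of -0.33, below that of the members. No member was 2-fold apart, with 14.1% of all genes 2-fold higher and 15.4% lower. *Rps26* was lowest at -0.60, followed by *Rpl4* at -0.52, and *Rpl27a* was highest at 0.22. Against colonic muscle PDGFRα+ cells the mucosal ones were higher in 69 of 76 members, with a median of 0.24 against 0.09 for 12711 genes. For 649 non-member genes of 100 FPKM or more in either library the median was -0.01. No member was 2-fold apart here, with 14.2% of genes higher and 8.45% lower. *Rps26* was highest at 0.73 and *Rps21* lowest at -0.17. The mucosal PDGFRα+ library also carried epithelial markers, which summed to 1268 FPKM in it, to 4628 FPKM in mucosa and to 16.5 FPKM in colonic PDGFRα+ cells.

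Colon and jejunum were then compared cell type by cell type, across separate tables. Colonic SMCs were lower than jejunal SMCs in all 76 members, with ratios from -0.78 for *Rps24* to -0.27 for *Rpl39*. Their median was -0.49, or 0.71-fold, and the interquartile range of members was 0.13 against 0.36 for all 11321 genes, whose median was -0.14. None was 2-fold apart, with 2.36% of all genes higher and 2.61% lower. Relative to all genes the members lay 0.35 lower in SMCs, 0.34 lower in ICC and 0.15 lower in SM tissue. Non-member genes of 100 FPKM or more in either library had medians of -0.12 in SMCs, 0.05 in ICC and -0.11 in SM tissue. In SM tissue the members were thus level with those genes. In ICC 72 of 76 members were lower in colon (median -0.21 against 0.13 for 12384 genes, with 7.63% higher and 6.15% lower by 2-fold). *Rplp1* at -0.70 was the lowest of them. In SM tissue 72 of 76 were lower by a median of -0.11 (against 0.05 for 12832 genes, with 2.88% higher and 1.37% lower by 2-fold). Colonic PDGFRα+ cells were below the library labelled jejunal PDGFRα+ cells in 70 of 76 members (median -0.27 against -0.01 for 12785 genes, with 9.73% higher and 16.5% lower by 2-fold). Here the non-member genes of 100 FPKM or more in either library had a median of -0.26, close to that of the members. In this last comparison *Rps16* was highest at 0.37, and *Rpl34* and *Rpl29* were lowest at -0.70 each, with *Rpl34* at -0.36 when *Rpl34-ps1* was added. Contractile transcripts filled 23.3% of colonic and 17.1% of jejunal SMCs, and their part in the SMC difference was not tested.

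The members differed among themselves less than they moved together. After the median member of each library was subtracted, a member's relative level varied over the 10 libraries by a median of 0.44 on the log2 scale, and by less than 0.5 in 46 of 76 members. Among the narrowest were *Rps6* (0.22), the substrate of the S6 kinases, *Rpl9* (0.25) and *Rpl6* (0.27). *Rps6* was at 370.3 FPKM in mucosal PDGFRα+ cells, 449.7 FPKM in mucosa, 199.6, 196 and 303 FPKM in colonic SMCs, ICC and PDGFRα+ cells, and 220.3 FPKM in colonic SM tissue. The jejunal levels were 292, 203 and 356 FPKM in SMCs, ICC and the library labelled PDGFRα+ cells, and 233 FPKM in SM tissue. Its course thus followed that of the whole group. The 8 widest members were *Rplp0* (1.26), *Rpl34* (1.06), *Rps24* (0.93), *Rps16* (0.85), *Rps26* (0.85), *Rpl5* (0.83), *Rps21* (0.71) and *Rps19* (0.71), and leaving out the library labelled jejunal PDGFRα+ cells gave the same 8. With *Rpl34-ps1* added, the range of *Rpl34* was 0.36, at position 57 of 76.

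*Rplp0* encodes the base of the stalk, which carries pairs of P1 and P2 proteins. It was at 789.7 FPKM in mucosal PDGFRα+ cells and 1040 FPKM in mucosa, and at 561, 207 and 538 FPKM in colonic SMCs, ICC and PDGFRα+ cells, against 238 FPKM in colonic SM tissue. Its jejunal levels were 735, 234 and 582 FPKM in SMCs, ICC and the library labelled PDGFRα+ cells, against 259 FPKM in SM tissue. ICC and the SM tissues formed a low group and the other 6 libraries a high group, with no overlap. Its relative level was 0.69 in colonic and 0.57 in jejunal SMCs, and -0.54 and -0.57 in colonic and jejunal ICC. The SMC excess of *Rplp0* over tissue was 1.23 in colon and 1.5 in jejunum and lay between 1.08 and 1.60 over the settings tried. The other stalk genes were also higher in SMCs than in tissue, by less: *Rplp1* was at 0.34 in colon and 0.53 in jejunum, and *Rplp2* at 0.39 and 0.59. *Rplp2* had 353 FPKM in colonic SMCs and 269.5 FPKM in colonic SM tissue, and 460 FPKM in jejunal SMCs and 306 FPKM in jejunal SM tissue. The assembled locus of *Rplp0*, chr5:115461126-116181645, joins it with many neighbouring genes, and its main variant of 1360 bases held 64.5% to 93.7% of its level. *Rplp0* and *Rpl13a* are both in common use as reference genes for quantitative PCR. *Rpl13a* was at 558 and 770 FPKM in colonic and jejunal SMCs, against 380 and 381 FPKM in the SM tissues. Its log2 ratio to tissue lay between 0.23 and 0.82 in colon and between 0.53 and 1.11 in jejunum over the settings tried. An assembled variant of 742 bases was at 159 and 246 FPKM in colonic and jejunal SMCs, against 72.4 and 67.0 FPKM in the SM tissues.

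*Rpl5*, which brings the 5S ribosomal RNA into the large subunit, ran the other way. It was at 257 FPKM in mucosal PDGFRα+ cells and 341 FPKM in mucosa, and at 124, 180 and 218 FPKM in colonic SMCs, ICC and PDGFRα+ cells, against 209 FPKM in colonic SM tissue. In jejunum it was at 195, 187 and 274 FPKM in SMCs, ICC and the library labelled PDGFRα+ cells, against 219 FPKM in SM tissue. Colonic SMCs were thus the lowest of the 10 libraries, at a log2 ratio of -0.75 to tissue, and jejunal SMCs were at -0.17. *Rpl11*, its partner in the 5S particle, was at 311 FPKM in colonic SMCs against 311 FPKM in colonic SM tissue, and at 404 FPKM in jejunal SMCs against 318 FPKM in jejunal SM tissue. *Rpl17*, another large subunit gene, was at -0.59 in colonic SMCs and 0.01 in jejunal SMCs relative to tissue.

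Among small subunit genes, *Rps16* was high relative to the other members in mucosal and colonic PDGFRα+ cells and *Rps19* in colonic PDGFRα+ cells. *Rps16*, whose protein contacts the transfer RNA, was at 791 FPKM in mucosal PDGFRα+ cells and 687 FPKM in mucosa, and at 275, 308 and 671 FPKM in colonic SMCs, ICC and PDGFRα+ cells, against 276 FPKM in colonic SM tissue. The jejunal levels were 358, 348 and 518 FPKM in SMCs, ICC and the library labelled PDGFRα+ cells, against 278 FPKM in SM tissue. Its relative level was 0.53 in mucosal and 0.54 in colonic PDGFRα+ cells, and no higher than 0.18 in the other 8 libraries. It was -0.09 in the library labelled jejunal PDGFRα+ cells. A copy of its coding sequence at 100% identity lies at chr5:129633952-129634392 within *Gpr133*, which was at 2.22 to 442 FPKM in the 10 libraries. The part of reads from that copy in the level of *Rps16* was not tested. *Rps19*, mutated in human Diamond-Blackfan anaemia, was at 438 FPKM in mucosal PDGFRα+ cells and 406 FPKM in mucosa, and at 226, 188 and 456 FPKM in colonic SMCs, ICC and PDGFRα+ cells, against 180.2 FPKM in colonic SM tissue. Its jejunal levels were 334, 221 and 403 FPKM in SMCs, ICC and the library labelled PDGFRα+ cells, against 189 FPKM in SM tissue. Colonic PDGFRα+ cells had the highest *Rps19* level of the 10 libraries and colonic SM tissue the lowest. The relative level of *Rps19* was 0.47 in colonic PDGFRα+ cells, 0.17 in mucosal PDGFRα+ cells and 0.04 in the library labelled jejunal PDGFRα+ cells.

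*Rps26*, whose protein lies at the mRNA exit, was highest in mucosa. It was at 475 FPKM in mucosal PDGFRα+ cells and 721 FPKM in mucosa, and at 274, 172 and 285 FPKM in colonic SMCs, ICC and PDGFRα+ cells, against 228 FPKM in colonic SM tissue. In jejunum it was at 396, 243 and 403 FPKM in SMCs, ICC and the library labelled PDGFRα+ cells, against 245 FPKM in SM tissue. Its relative level was 0.52 in mucosa and -0.33 in colonic PDGFRα+ cells. *Rps21* had the reverse order in these libraries. It was at 627 FPKM in mucosal PDGFRα+ cells and 608 FPKM in mucosa, and at 346, 297 and 707 FPKM in colonic SMCs, ICC and PDGFRα+ cells, against 357 FPKM in colonic SM tissue. The jejunal levels were 504, 423 and 847 FPKM in SMCs, ICC and the library labelled PDGFRα+ cells, against 417 FPKM in SM tissue. Its relative level was 0.38 and 0.39 in both muscle PDGFRα+ cell libraries and -0.32 in mucosa.

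**Figure D4:**
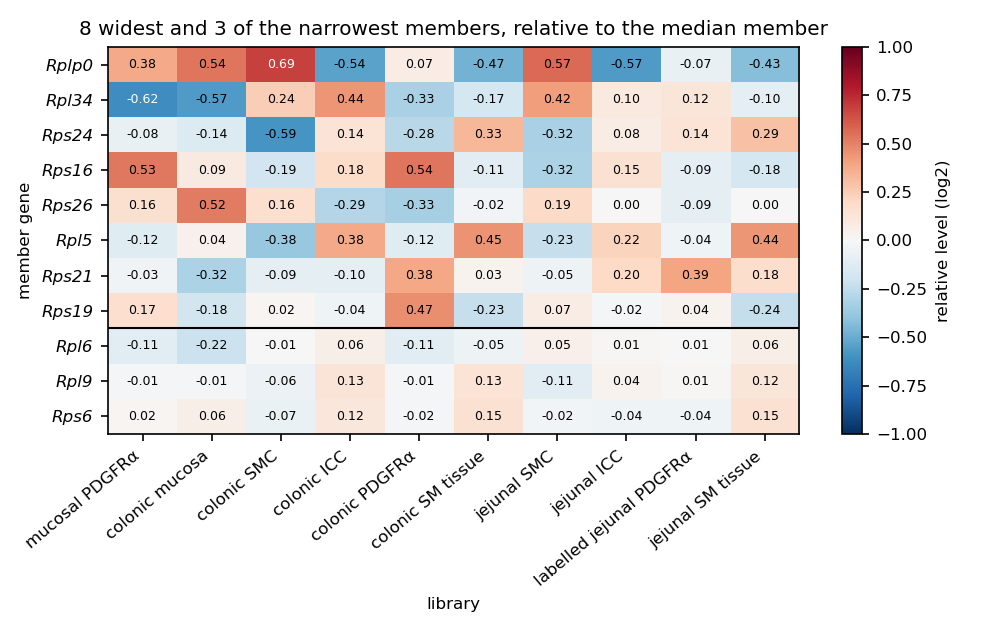
Relative level (log2 of FPKM + 1, minus the median member of the library, minus the member's own median) of the 8 members with the widest range and, under the line, 3 of the narrowest, in 10 libraries. *Rplp0* is positive in both SMC and both mucosal libraries and negative in ICC and SM tissues, *Rps24* and *Rpl5* are negative in SMCs, and *Rps16* is highest in colonic and mucosal PDGFRα+ cells.

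*Rps24* differed between libraries in its transcript variants more than in its level. The gene lies on chromosome 14 and its protein binds the body of the small subunit. The summed level was 653 FPKM in mucosal PDGFRα+ cells and 741 FPKM in mucosa, and 262, 375 and 479 FPKM in colonic SMCs, ICC and PDGFRα+ cells, against 473 FPKM in colonic SM tissue. In jejunum it was 449, 416 and 763 FPKM in SMCs, ICC and the library labelled PDGFRα+ cells, against 485 FPKM in SM tissue. SMCs were thus below their tissue, at -0.85 in colon and -0.11 in jejunum. The tables list 3 known variants, of 837, 857 and 875 bases, and 2 shorter assembled ones. The 837-base variant stood at 130 FPKM in mucosal PDGFRα+ cells and 406 FPKM in mucosa, at 1.44 to 15.3 FPKM in the colonic muscle libraries and at 2.19 to 27.6 FPKM in the jejunal ones. The 875-base variant ran the opposite way, at 63.4 FPKM in mucosal PDGFRα+ cells and 9.44 FPKM in mucosa, against 115 and 204 FPKM in colonic and jejunal SMCs.

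Within a library these shares do not depend on its scaling. Of the 3 known *Rps24* variants together, the 837-base one made up 39.4% in mucosal PDGFRα+ cells and 93.8% in mucosa, and between 1.04% and 7.5% in the 8 muscle libraries. The 875-base one made up 94.7% in colonic and 96.5% in jejunal SMCs, against 63.8% and 79.4% in the SM tissues. The 857-base one was highest in colonic PDGFRα+ cells at 56.1% and in mucosal PDGFRα+ cells at 41.5%, and it made up 27.3% and 24.3% in colonic and jejunal ICC. The mixture thus differed most between mucosa, PDGFRα+ cells and SMCs, and the colonic and jejunal values lay close for SMCs and for ICC. Of the whole *Rps24* level the 837-base variant took 20% in mucosal PDGFRα+ cells, 54.8% in mucosa and at most 3.61% elsewhere. Its range of 54.3 percentage points was the widest of the 171 variants of the members. The 875-base variant took 43.9% and 45.5% of the whole level in colonic and jejunal SMCs, against 27.7% and 35.5% in the SM tissues. A shorter assembled variant of 403 bases, left out of the shares of known variants, took 36.7% to 66.8% of the whole level, with the most in jejunal ICC. The epithelial genes *Epcam* and *Krt8* were at 144 and 465 FPKM in mucosal PDGFRα+ cells and at 595 and 1596 FPKM in mucosa, and at no more than 14.1 and 52.1 FPKM in the other 8 libraries. Their part in the mixture was not tested.

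**Figure D5:**
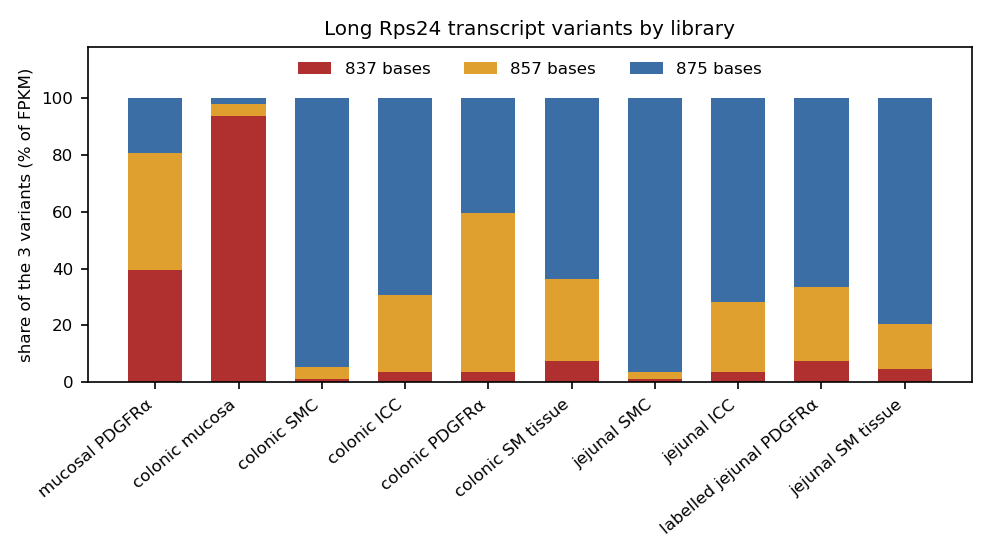
Share (%) of the FPKM of the 3 known *Rps24* variants, of 837, 857 and 875 bases, in each of 10 libraries. Shorter assembled variants are left out. The 837-base variant fills 93.8% of the bar of mucosa and 39.4% of that of mucosal PDGFRα+ cells, and the 875-base variant fills 94.7% and 96.5% of those of colonic and jejunal SMCs.

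The tables do not give the exons of these variants. Of 5 coding transcripts of *Rps24* in the gencode vM1 annotation (NCBIM37, which is mm9), 2 have an annotated stop codon, and 1 of them, Rps24-205, is 837 bases long like the mucosal variant. Both share exon 4, chr14:25312605-25312715, and then differ. In Rps24-205 the last exon is chr14:25314997-25315368 and in Rps24-203 it is chr14:25314652-25314654, so that the reading frame closes after 12 and 3 bases. The ends are shown because they are where these forms part, with the last 15 bases of exon 4 in lower case and the coding bases after it, stop codon included, in capitals.
Rps24-205: ggtgctggcaaaaagCCAAAGGAGTAG
Rps24-203: ggtgctggcaaaaagTGA
In that annotation no coding transcript of 857 or 875 bases was matched. The tables class all 3 known variants as matches to RefSeq transcripts, whose exons were not used here, so which end the other 2 have is not given.

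Other members changed their variants less evenly. The variant of *Rps14* of 459 bases, an assembled form near the known one, made up 35%, 3.88% and 30.1% of the gene in colonic SMCs, ICC and PDGFRα+ cells, against 47.4% in colonic SM tissue. A variant of 454 bases made up 39.5% in colonic ICC and 23.0% in jejunal SMCs, and at most 6.48% in the other 8 libraries. These forms differ by a few bases and lie in assembled models, so reads can be shared between them. Known variants held 78.7% to 81.7% of the summed member level in each library.

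Ribosomal proteins with symbols outside the naming rule, given here for *Rpsa* and *Fau*, behaved like the members. *Rpsa*, which is also the laminin receptor, was at 364 and 507 FPKM in colonic and jejunal SMCs, against 259 and 274 FPKM in the SM tissues. *Fau* encodes a ribosomal protein fused to a ubiquitin-like protein. It was at 448 FPKM in colonic PDGFRα+ cells, against 229 FPKM in colonic SM tissue. Both genes were also among the 10 genes, of 5984 with a mean of 10 FPKM or more, whose log2 level was most like that of the summed members over the 10 libraries, with Pearson coefficients of 0.98 for *Rpsa* and 0.97 for *Fau*. Others among them were *Rpl34-ps1*, *Eef1b2*, *C330021F23Rik*, *Sec61g*, *Snrpg*, *Atox1* and *Mrpl52*, at 0.95 to 0.96. These coefficients describe 10 libraries that share tissues and tables.

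Paralogs of ribosomal proteins were at lower levels and some differed in pattern. Of 10 listed, 6 had values. *Rps27l*, a paralog of *Rps27* and a p53 target, was at 147 and 182 FPKM in colonic and jejunal SMCs, against 70.4 and 79.2 FPKM in the SM tissues, a log2 ratio of 1.05 and 1.19. *Rps27* itself was at 394 and 562 FPKM in colonic and jejunal SMCs, against 407 and 425 FPKM in the SM tissues. *Rpl22l1* was lower in SMCs than in tissue, at -0.76 in colon and -0.28 in jejunum. *Rpl3l*, the form of striated muscle, was at 5.44 FPKM in colonic PDGFRα+ cells and at most 1.08 FPKM in the other 9 libraries. *Rpl39l*, known from testis, was at most 0.175 FPKM.

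In the 3 comparisons given here, other genes of translation had medians nearer to 0 than the members. In mucosa over colonic SM tissue, where members had a median of 1.00, the median was 0.53 for 75 mitochondrial ribosomal proteins (8 of them 2-fold higher, 0 lower), 0.38 for 8 elongation factors (2 higher, 1 lower), 0.31 for 38 initiation factors (3 higher, 1 lower) and 0.38 for 48 ribosome biogenesis genes (3 higher, 1 lower). Of all genes 19.6% were 2-fold higher and 22.1% lower in this comparison. *Eif6*, which keeps the subunits apart, was at 95.4 FPKM in mucosa against 20.5 FPKM in colonic SM tissue. *Eef1b2*, the exchange factor of eEF1A, was at 292 against 102 FPKM. In colonic PDGFRα+ cells over tissue, where members had 0.57, the same 4 lists had medians of -0.04, 0.16, -0.09 and 0.17. In colonic over jejunal SMCs, where members had -0.49, they had -0.38, -0.30, -0.29 and -0.38, with 74 of 75 mitochondrial ribosomal proteins and 46 of 48 biogenesis genes lower, though none by 2-fold, with 2.61% of all genes past that fold downward and 2.36% upward. *Eef1a2*, the eEF1A form of neurons and striated muscle, was at 5.43, 7.28 and 6.01 FPKM in colonic SMCs, ICC and PDGFRα+ cells, against 65.2 FPKM in colonic SM tissue, and the neuron markers moved with it, at sums of 24.6, 37.7 and 29.0 FPKM against 344 FPKM. *Fbl*, the methylase of ribosomal RNA, was at 33.3 FPKM in jejunal SMCs against 11.4 FPKM in jejunal SM tissue, and at 21.7 FPKM in colonic SMCs against 17.0 FPKM in colonic SM tissue.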

How the data were processed

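RNA of 10 mouse gut samples was sequenced with 1 library each. Per the labels and the study's methods, reads were mapped by the authors on mm9 (TopHat 1.4.1), and Cufflinks 2.0.2 served for assembly. Their deposited FPKM values stand per variant in 3 tables (jejunum, colon and mucosa), of 70143, 68502 and 59061 variants. Each table was treated as normalised on its own, so levels set across tables carry that limit. Each of the 10 columns was matched to a sample by name, and 0 columns of samples were left out.

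Variants under 0.025 FPKM were set to 0, the cutoff of the study's methods, and variants of 1 symbol were summed. Ratios are log2 of FPKM + 1, which understates differences of low genes, over genes that reached 1 FPKM in either library, and a call is a 2-fold difference. With 1 library per group no test was made. Members and gene lists were chosen with earlier results of these data known. Genes were named by rule: the 5 highest and 5 lowest members by summed level, the 8 widest and 4 narrowest in relative level, the 3 highest and 3 lowest ratios of a comparison, the extremes of the other lists, the 10 genes most alike in pattern, fusion genes and paralogs. *Rpl11*, *Rps27*, *Fbl* in colon, *Eef1a2* outside its extremes and *Rpl34-ps1* were chosen after their values were seen. So were the variants of *Rps24*, *Rps14* and *Rpl13a* and the genes at copies of *Rps23* and *Rps16*. Some genes that the rule names are not reported here.

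Coding sequences of gencode vM1 were aligned to NCBIM37 with BLAST+ 2.17.0. Start sites came from RefSeq (GRCm38.p6), and these coordinates are not those of mm9. Calculations ran in Python 3.11.15 (pandas 2.3.3, numpy 2.4.6) and plots in matplotlib 3.10.9. Ratios and calls were tested on simulated data. Alternatives were no cutoff, known variants alone, the highest variant alone, a pseudocount of 0.1, no filter, scaling to equal totals or by median ratios, a group widened by ribosomal proteins outside the naming rule, and totals without abundant or contractile genes.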

Additional observations from a re-analysis of the deposited data

Results flagged for a closer look

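Sorted PDGFRα+ cells and the unsorted tissue of the same layer were compared in both layers of the colon. The members had medians of opposite sign. Their median log2 ratio was 0.57 in colonic muscle PDGFRα+ cells over colonic SM tissue, with 76 of 76 members higher, and -0.18 in mucosal PDGFRα+ cells over mucosa, with 64 of 76 members lower. The median of all genes compared was -0.11 in the muscle layer and -0.10 in the mucosa, where the members lay 0.08 below it. Among non-member genes of 100 FPKM or more in either library, the median was 0.41 in the muscle layer and -0.33 in the mucosa. The members lay above these genes in both layers. The mucosal median of members was -0.05 with equal totals and -0.07 with median-ratio scaling. Epithelial markers summed to 1268 FPKM in mucosal PDGFRα+ cells and 4628 FPKM in mucosa, and their part in the ratio was not tested. With 1 library in each condition, the difference was not tested.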

How the results depend on the processing

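The 10 shares of total FPKM moved by less than 1.5 times under the 7 alternatives run on each, and the folds of the 13 medians by less than 1.5 times under their 9. The sign of the median turned in 2 of the 13 comparisons, both with totals made equal (TPM), where jejunal ICC over tissue was at 0.13 and colonic SMCs over tissue at -0.02. TPM moved the median of all genes by -0.22 to 0.16 and median-ratio scaling by -0.18 to 0.23. The difference between members and all genes kept its sign in all 13 comparisons under the alternatives run. Examples are 0.38 to 0.52 for colonic SMCs over tissue and 0.93 to 1.05 for mucosa over colonic SM tissue. It did not always keep it against non-member genes of 100 FPKM or more in either library. These had medians of 0.27 for colonic SMCs over tissue (members 0.13) and -0.33 for mucosal PDGFRα+ cells over mucosa (members -0.18). They had -0.036 for jejunal ICC over tissue (members -0.030) and -0.114 for colonic over jejunal SM tissue (members -0.106).

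Counts of members past 2-fold moved with scaling and with the choice of variants. With TPM, 1 member was higher in jejunal SMCs over tissue and 1 higher in the library labelled jejunal PDGFRα+ cells over tissue. TPM also left 6 higher in colonic PDGFRα+ cells over tissue, 16 higher in mucosa over colonic SM tissue and 1 lower in colonic SMCs over tissue. With known variants alone, 1 member was lower in the library labelled jejunal PDGFRα+ cells over tissue, 1 higher in colonic PDGFRα+ cells over that library and 1 lower in mucosal over colonic PDGFRα+ cells, namely *Rps19* at -1.03. Of 552 ratios of named members under an alternative 5 moved by more than 1.5 times and 0 changed the sign of a 2-fold difference. Leaving out members with a copy at 99% identity, adding *Rpl34-ps1* and leaving out the library labelled jejunal PDGFRα+ cells were chosen after seeing the data. No paired analysis was possible because the labels carry no replicate numbers and each group is 1 library. Depth is unknown, and short transcripts, near-identical copies and assembled variants limit what the level of a single member shows.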
